A study of Homo sapiens with 2 samples.

Results

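ID1, ID2 and ID3 and the feedback inhibitors SMAD6, SMAD7 and BAMBI were described in single cells of MDA-MB-231 mammospheres adapted to metformin or not. They were taken by symbol from the count table, which held all 6 of them among 19826 genes. The genes were selected on their levels in these 2 libraries, with ID1 and ID3 already known to be low at 2 mM, so the values at the 2 doses describe these libraries and are no test. MDA-MB-231 is an established human breast cancer line that lacks hormone receptors and has mesenchymal features, and metformin is a drug for type 2 diabetes that inhibits respiratory complex I. The Metformin library came from cells kept as flat cultures in high-glucose medium with 2 mM metformin for 30 days, and the Wildtype library from cells kept in that medium without the drug (0 mM) for the same time. The label Wildtype names this dose and no genotype. Both then formed mammospheres, floating spheres, over 10 days and were dissociated to single cells. Whether metformin was in the sphere medium is not stated in the labels.

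ID proteins have a helix-loop-helix domain but no basic region, so they pair with E proteins such as TCF3 and TCF12 and keep these from binding DNA. Their genes are textbook targets of bone morphogenetic proteins (BMPs): a BMP dimer joins type I and type II receptors, these phosphorylate SMAD1 and SMAD5, and with SMAD4 these enter the nucleus and switch on ID1, ID2 and ID3. SMAD6, SMAD7 and BAMBI are induced by the same pathways and damp them. In mouse models of triple-negative breast cancer, ID1 and ID3 are known for promoting lung colonisation.

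After filtering, the Metformin library held 991 cells with 3264343 UMIs and a median of 2509 per cell, and the Wildtype library 1000 cells with 4403045 UMIs and a median of 3386 per cell. Mitochondrially encoded transcripts took 5.38% of UMIs in the Metformin and 5.49% in the Wildtype library. No barcode was found in both libraries. Within the libraries, 165 Metformin and 111 Wildtype barcodes lay 1 base from another barcode. Of the 8 markers listed for the line, none was at 0 in either library, but their sum was lower at 2 mM, with 4542 and 6600 counts per 1000000 UMIs in the Metformin and the Wildtype library. VIM, the mesenchymal filament gene vimentin, had a ratio of 0.488 (0.473 to 0.504), AXL one of 0.641 (0.564 to 0.728) and CD44 one of 0.703 (0.647 to 0.764), and their part in the results below was not tested. LGALS1 had a ratio of 0.822 (0.793 to 0.851) and MSN one of 0.876 (0.762 to 1.01). The keratin genes of the list were not lower. KRT19 had a ratio of 1.33 (1.22 to 1.46), KRT18 one of 1.12 (1.05 to 1.20) and KRT8 one of 1.07 (0.958 to 1.19). The luminal epithelium markers, which share KRT8, KRT18 and KRT19 with the list for the line, were not scarce. They summed to 1005 and 855 counts per 1000000 UMIs in the Metformin and the Wildtype library. Among them EPCAM had a ratio of 1.49 (1.16 to 1.91), and CDH1 had 0 and 2 UMIs. Markers of fibroblasts, leukocytes and endothelium were scarce. The 6 fibroblast markers summed to 6.74 and 3.86 counts per 1000000 UMIs in the Metformin and the Wildtype library. The 4 leukocyte markers in the table summed to 26.96 and 23.4, and the 2 endothelial ones, KDR and TIE1, to 3.68 and 1.14. Within the leukocyte sum, CD14 was higher (52 and 20 UMIs in the Metformin and the Wildtype library, ratio 3.51, 2.06 to 6.20) and CD68 lower (33 and 76 UMIs, ratio 0.586, 0.377 to 0.892). The hormone receptor genes ESR1 and PGR had 0 and 1 UMIs in the Metformin and 2 and 0 UMIs in the Wildtype library. PTPRC, the pan-leukocyte marker, had 1 UMI in the Metformin and 0 in the Wildtype library. Levels are counts per 1000000 UMIs of a library (CPM). Intervals below are 95% intervals of counting error, except those of differences of shares. These take the outer bounds of 2 such intervals, so they are wider and can include 0 where a 95% interval would not. No difference between doses has a replicate check.

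The proximal promoters of the 3 ID genes are shown because the genes did not move together. Each is the 250 bases before the RefSeq start (GRCh38.p14), 5′ to 3′, with matches on either strand to ATTGG (the CCAAT box), TATAAA (the TATA box), CAGAC (a SMAD half-site), GTCTAGAC (its palindrome) and GGCGCC (a GC-rich SMAD element) in capitals. ID1 lies at chr20:31605039-31605288, plus strand, ID3 at chr1:23559502-23559751, minus strand, and ID2 at chr2:8681806-8682055, plus strand.
ID1: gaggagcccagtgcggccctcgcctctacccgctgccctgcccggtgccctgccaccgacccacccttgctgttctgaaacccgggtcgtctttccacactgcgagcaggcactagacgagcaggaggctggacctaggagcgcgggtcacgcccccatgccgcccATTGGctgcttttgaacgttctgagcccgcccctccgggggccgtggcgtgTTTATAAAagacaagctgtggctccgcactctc
ID3: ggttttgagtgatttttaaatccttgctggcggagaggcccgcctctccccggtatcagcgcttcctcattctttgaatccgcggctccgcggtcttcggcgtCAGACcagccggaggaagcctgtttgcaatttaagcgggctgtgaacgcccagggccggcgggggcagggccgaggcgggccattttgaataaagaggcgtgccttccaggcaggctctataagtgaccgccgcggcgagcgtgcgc
ID2: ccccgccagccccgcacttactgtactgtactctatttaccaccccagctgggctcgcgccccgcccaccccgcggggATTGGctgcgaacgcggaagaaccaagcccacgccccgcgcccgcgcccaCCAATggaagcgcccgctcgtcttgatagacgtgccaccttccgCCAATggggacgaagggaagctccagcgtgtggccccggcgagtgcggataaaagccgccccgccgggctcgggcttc
ID1 had an ATTGG match on the plus strand, and so CCAAT on the minus strand, 84 to 80 bases before its start and a TATA box 31 to 26 bases before it, which overlaps a second match on the other strand. ID3 had no exact match to ATTGG or TATAAA, and held a CAGAC match 147 to 143 bases before its start. Only exact matches were sought, and the ID3 window reads ctataag shortly before its start. ID2 had 3 CCAAT boxes and no TATAAA. Among 35116 promoter windows of the same length, 32.0% held ATTGG, 10.7% TATAAA, 38.0% CAGAC, 16.4% GGCGCC and 0.182% GTCTAGAC. No GGCGCC or GTCTAGAC was in these 3 windows. The BMP-responsive elements described for the mouse Id1 gene lie further upstream than the window shown.

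ID3 and ID1 were low in metformin-adapted cells, and ID2 was high. ID3 had 76 UMIs or 23.3 CPM (18.3 to 29.1) in the Metformin library, against 793 UMIs or 180 CPM (168 to 193) in the Wildtype library. The ratio was 0.129 (0.101 to 0.164), the second lowest of the 4105 genes compared. ID1 had 373 UMIs or 114 CPM (103 to 126) in the Metformin library, against 1817 UMIs or 413 CPM (394 to 432) in the Wildtype library. Its ratio of 0.277 (0.247 to 0.310) was the fourth lowest. Among the 11770 genes with at least 20 UMIs, ID3 ranked 9 and ID1 ranked 45 from the lowest ratio. ID2 went the other way, with 111 UMIs or 34.0 CPM (28.0 to 40.9) in the Metformin library, against 47 UMIs or 10.7 CPM (7.84 to 14.2) in the Wildtype library. This is a ratio of 3.19 (2.25 to 4.58). The level intervals of the 2 libraries did not overlap for any of the 3 ID genes. ID4, the remaining family member, had 0 UMIs in the Metformin and 4 in the Wildtype library.

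Only 2 of the 6 genes, ID1 and ID3, reached 50 CPM in 1 library and 50 UMIs in all, the minimum for comparison, and ID3 reached it only through the Wildtype library, where it is high. Of all 4105 genes that did so, 3.31% were at least 1.5-fold lower and 5.04% at least 1.5-fold higher at 2 mM. With TMM factors 148 genes were higher and 216 lower, against 207 and 136 as scaled here. All 6 genes had at least 20 UMIs, as did 11770 genes in all, of which 7.31% were at least 1.5-fold lower and 13.1% at least 1.5-fold higher. Since the genes were chosen with this contrast in view, nothing is read from these shares.

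**Figure D1:**
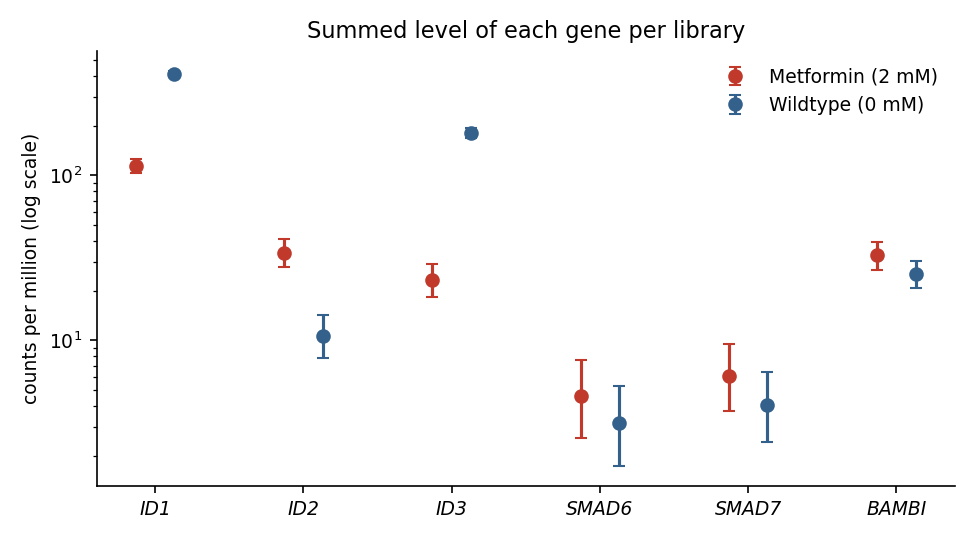
CPM of each gene summed over the cells of a library (log axis), with exact Poisson 95% intervals of counting error, Metformin left of Wildtype. ID1 and ID3 lie lower and ID2 higher in the Metformin library, and the intervals of SMAD6, SMAD7 and BAMBI overlap between the libraries.

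The 3 ID transcripts share little sequence. The longest exact run common to annotated transcripts was 21 bases for ID1 and ID2, 19 for ID2 and ID3 and 15 for ID1 and ID3. ID2 overlaps the antisense gene ID2-AS1 in the GENCODE 29 annotation, and whether counting used strand is not given in the sources used here, so its reads cannot be told from those of its partner. SMAD6 overlaps AC013564.1, a sense intronic gene on the same strand, so strand cannot tell their reads apart. Neither ID2-AS1 nor AC013564.1 was in the count table. ID1, ID3, SMAD7 and BAMBI overlapped no other annotated gene.

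Fewer metformin-adapted cells held an ID1 or ID3 transcript, and at the depth deposited those that did held fewer. Without thinning, ID1 was found in 200 of 991 Metformin cells (20.2%, 17.7 to 22.8) and in 527 of 1000 Wildtype cells (52.7%, 49.6 to 55.8). ID1-positive cells averaged 1.86 and 3.45 ID1 UMIs in the Metformin and the Wildtype library. Cells with 10 or more ID1 UMIs numbered 2 in the Metformin and 36 in the Wildtype library, with maxima of 11 and 35. ID3 was found in 52 Metformin cells (5.25%, 3.94 to 6.82) and in 335 Wildtype cells (33.5%, 30.6 to 36.5), with means of 1.46 and 2.37 UMIs per positive cell. A single Metformin cell held 9 of the 76 ID3 UMIs, and no other held more than 3. ID2 was found in 73 Metformin cells (7.37%, 5.82 to 9.17) and in 40 Wildtype cells (4%, 2.87 to 5.41), and 27 Metformin but 6 Wildtype cells held 2 or more of its UMIs.

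At an equal depth of 1000 UMIs per cell the order of the libraries in shares of cells was the same. ID1 was then found in 65 of 800 Metformin cells (8.12%, 6.33 to 10.2) and in 261 of 944 Wildtype cells (27.6%, 24.8 to 30.6), a difference of -19.5 points (-24.3 to -14.6). ID3 was found in 2.38% (1.44 to 3.68) of Metformin and in 15.8% (13.5 to 18.3) of Wildtype cells, a difference of -13.4 points (-16.8 to -9.83). Mean UMIs per positive cell were 1.23 and 1.53 for ID1 in the Metformin and the Wildtype library. For ID3 they were 1.32 and 1.26, so the order was reversed, and the Metformin mean rests on 19 cells. ID2 was found in 24 Metformin cells (3%, 1.93 to 4.43) and in 10 Wildtype cells (1.06%, 0.509 to 1.94), and the interval of its difference of 1.94 points (-0.01 to 3.92) included 0. With 500 UMIs per cell the ID2 difference was 1.72 points (0.18 to 3.24), with 2000 it was 4.44 points (1.32 to 7.58), and unthinned 3.37 points (0.41 to 6.30), all intervals above 0. The libraries hold 1 cell line and no cell type that lacks these genes, so the share given by free RNA was not measured.

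**Figure D2:**
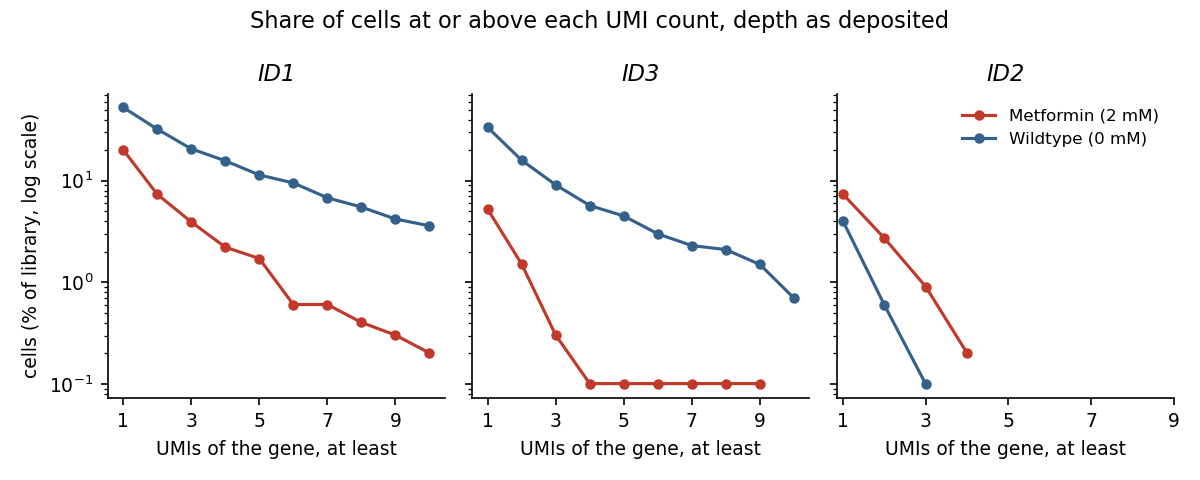
Percent of a library's cells (log axis) that hold at least the number of UMIs on the horizontal axis, for ID1, ID3 and ID2, at the depth deposited. The Metformin curve lies below the Wildtype curve at every count for ID1 and ID3 and above it for ID2, and points with no cell are not drawn.

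ID1 and ID3 were low in shallow and deep Metformin cells alike. In the tertiles of cells from shallow to deep, ID1 had 101, 121 and 114 CPM in the Metformin library and 432, 397 and 416 CPM in the Wildtype library. ID3 had 15.3, 34.5 and 20.03 CPM in the Metformin library and 173, 174 and 184 CPM in the Wildtype library. The highest Metformin value lay below the lowest Wildtype value for both genes. ID2 had 36.7, 44.0 and 29.6 CPM in the Metformin library and 19.4, 9.53 and 9.69 CPM in the Wildtype library. Its lowest Metformin value lay above its highest Wildtype value. In the shallow tertile ID2 had 12 Metformin and 9 Wildtype UMIs, and the intervals overlap (18.9 to 64.1 and 8.88 to 36.9 CPM).

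In the Wildtype library cells with both ID1 and ID3 were more than the product of their shares gives, by an amount that depends on depth. In the Metformin library no such excess was resolved at an equal depth. At 1000 UMIs per cell, 2 of 800 Metformin cells held both, where the product of the shares gives 1.54 cells. In the Wildtype library 52 of 944 cells held both, where the product gives 41.2 cells. Of Wildtype cells with ID1, 19.9% (15.3 to 25.3) also held ID3, against 14.2% (11.7 to 17.0) of those without it, and these intervals overlap. Among the 82 Wildtype cells with 2 or more ID1 UMIs the share with ID3 was 29.3% (19.7 to 40.4), an interval above that of the cells without ID1. Of Metformin cells with ID1, 3.08% (0.375 to 10.7) held ID3, against 2.31% (1.35 to 3.68) of those without, so no difference was detectable at this depth. The Wildtype difference between cells with and without ID1 was 5.72 points (-1.80 to 13.6) with 1000 UMIs per cell, outer bounds that include 0. With 500 per cell it was 7.79 points (0.801 to 15.8) and with 2000 it was 9.65 points (0.02 to 19.3), both intervals above 0. The Metformin difference was 0.764 points (-3.30 to 9.32) with 1000 per cell, 4.92 (-0.58 to 15.8) with 500 and 4.41 (-1.91 to 13.03) with 2000, and all 3 intervals include 0. Over cells, the Pearson correlation of log counts was 0.07 (800 Metformin cells) and 0.13 (944 Wildtype cells), weak values in sparse counts that share each cell's depth of capture. At the depth deposited, where deep cells are more likely to show both genes, it was 6.58 points (1.10 to 12.9) in the Metformin and 21.8 points (13.6 to 29.9) in the Wildtype library.

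ID2 was too rare for firm statements on pairs. Of the 24 Metformin cells with ID2 at 1000 UMIs, 2 held ID1 and 0 held ID3, which allows a share of up to 14.2% for ID3. Of the 10 Wildtype cells with ID2, 7 held ID1 and 6 held ID3. The share with ID3 was 60% (26.2 to 87.8) in these cells, against 15.3% (13.1 to 17.8) in Wildtype cells without ID2.

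**Figure D3:**
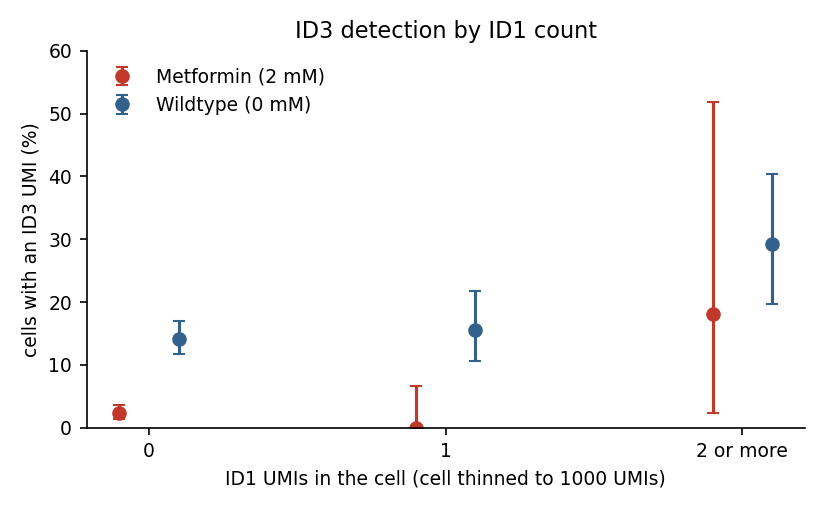
Percent of cells with at least 1 ID3 UMI among cells with 0, 1, or 2 or more ID1 UMIs, all cells thinned to 1000 UMIs, with exact binomial 95% intervals, Metformin left of Wildtype. In the Wildtype library the share is 14.2% at 0, 15.6% at 1 and 29.3% at 2 or more ID1 UMIs, and the Metformin interval at 2 or more rests on 11 cells.

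Cells were also sorted by 7 gene lists that contain none of the 6 genes (S phase, G2/M, interferon response, hypoxia, acute phase and chemokines, HLA class II, immediate early), each split at 3 UMIs of the list after thinning to 1000. ID1 was lower at 2 mM in all 14 resulting groups, with ratios of 0.215 to 0.361, and ID3 in all 14, with ratios of 0.0696 to 0.155. Every one of these intervals lay below 1. With 5 list UMIs, ID3 in immediate early cells had 3 Metformin and 15 Wildtype UMIs and a ratio of 0.378 (0.0701 to 1.34), whose interval includes 1. The 14 groups overlap, since the groups of different lists share cells. ID2 had ratios above 1 in 13 groups, with intervals above 1 in 11. The exception was the cells with immediate early transcripts, with 6 Metformin and 14 Wildtype UMIs of ID2 (14.6 and 18.1 CPM), a ratio of 0.806 (0.254 to 2.23).

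The genes differed in how they followed the interferon list, 25 genes such as ISG15, IFIT1 and DDX58 that cells switch on in response to interferon. Cells with 3 or more UMIs of this list made up 35.8% of Metformin and 52.6% of Wildtype cells. BAMBI had 65.0 CPM in such Metformin cells, against 14.2 CPM in the other Metformin cells, a ratio of 4.56 (2.92 to 7.32). In the Wildtype library BAMBI had 41.2 CPM in interferon-list cells, against 9.81 CPM in the others, a ratio of 4.20 (2.61 to 7.05). ID1 followed the list less steeply, with 155 and 89.0 CPM in the interferon-list and the other Metformin cells, a ratio of 1.74 (1.41 to 2.16). It had 589 and 247 CPM in the interferon-list and the other Wildtype cells, a ratio of 2.39 (2.16 to 2.65). ID3 was not higher in these cells: the ratios were 0.631 (0.358 to 1.07) in the Metformin and 0.911 (0.789 to 1.05) in the Wildtype library, where both intervals include 1. With 5 UMIs of the list as the threshold, a choice made after seeing the data, the Metformin ratio was 0.318 (0.123 to 0.692), an interval below 1 that rests on 7 UMIs in interferon-list cells, and the Wildtype ratio was 0.919 (0.789 to 1.07).

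ID2 was higher in the interferon-list cells of the Wildtype library, with a ratio of 4.49 (2.13 to 10.6) to the other cells, and in the Metformin library the ratio was 0.710 (0.448 to 1.10). At 5 list UMIs it was 2.495 (1.35 to 4.69) in the Wildtype and 0.259 (0.109 to 0.531) in the Metformin library, where the interval then lay below 1. Of the 10 Wildtype cells with ID2 at 1000 UMIs, 9 were interferon-list cells, and of the 24 such Metformin cells, 6. In interferon-list cells it had 30 and 38 UMIs, or 26.01 and 18.01 CPM, in the Metformin and the Wildtype library, a ratio between doses of 1.44 (0.864 to 2.39). In the other cells it had 72 and 9 UMIs, or 36.6 and 4.01 CPM, in the Metformin and the Wildtype library, a ratio of 9.13 (4.55 to 20.8). The 2 intervals do not overlap, and with 1 library per dose the difference between them was not tested. At 5 list UMIs the ratio in interferon-list cells lay below 1, with 8 Metformin and 27 Wildtype UMIs (0.587, 0.230 to 1.33). The share of interferon-list cells differs between the libraries, so the pooled ratios mix both kinds of cell. Within interferon-list cells the ratio between doses was 0.263 (0.224 to 0.308) for ID1 and 1.58 (1.14 to 2.17) for BAMBI, and within the other cells it was 0.361 (0.303 to 0.429) for ID1 and 1.45 (0.801 to 2.66) for BAMBI.

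**Figure D4:**
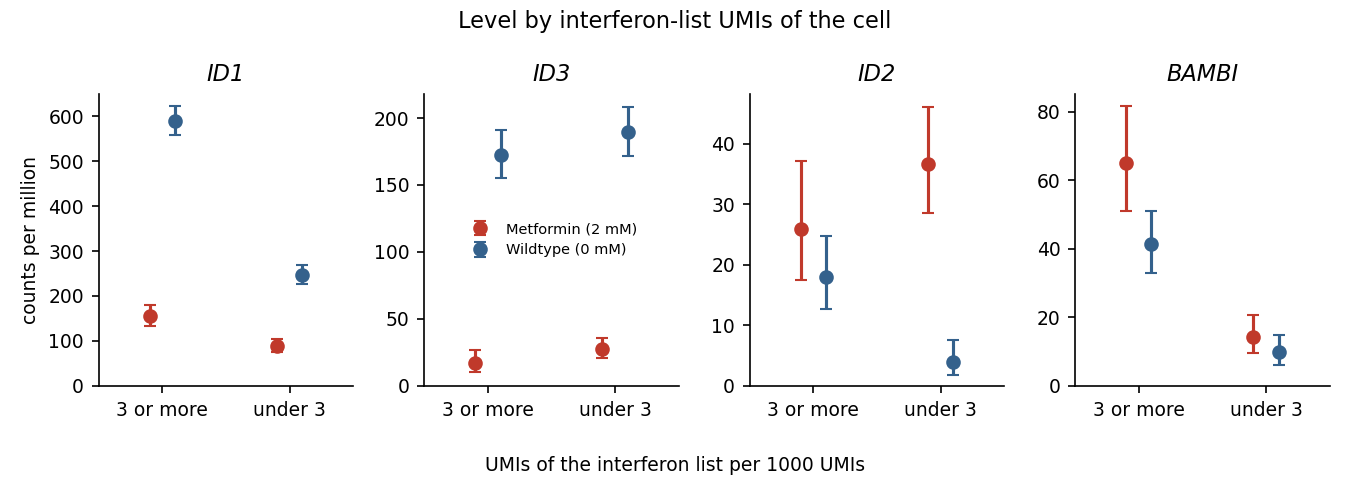
CPM of ID1, ID3, ID2 and BAMBI in cells with 3 or more and with under 3 UMIs of the interferon list per 1000 UMIs, with exact Poisson 95% intervals, Metformin left of Wildtype (linear axes from 0, a scale per gene). ID1 and BAMBI are higher in interferon-list cells of both libraries, ID3 is not, and ID2 is higher in them in the Wildtype library, while its 2 Metformin intervals overlap.

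Along the cell cycle, by the G2/M list, the summed levels of ID1 and ID3 differed in direction in the Wildtype library. ID1 had 374 CPM in cells with 3 or more G2/M UMIs, against 474 CPM in the other cells, a ratio of 0.790 (0.719 to 0.868). ID3 had 198 CPM in the G2/M cells, against 155 CPM in the others, a ratio of 1.28 (1.10 to 1.49). Neither ratio passed 1.5-fold. In the Metformin library ID1 had 118 and 109 CPM in the G2/M and the other cells, a ratio of 1.08 (0.870 to 1.34). There ID3 had 48 and 26 UMIs in the G2/M and the other cells (29.7 and 17.3 CPM), a ratio of 1.72 (1.04 to 2.88), and the cell with 9 ID3 UMIs is in one of these groups. With 5 G2/M UMIs as the threshold, chosen after seeing the data, this ratio was 1.33 (0.803 to 2.17), an interval that includes 1. ID1 also was lower in the Wildtype cells with acute phase and chemokine transcripts, at 332 CPM, against 475 CPM in the others (ratio 0.699, 0.633 to 0.771). In the Metformin library it had 114 and 113 CPM in these and the other cells, a ratio of 1.01 (0.788 to 1.30), and the difference between the libraries was not tested. At 5 list UMIs the ratios were 1.08 (0.874 to 1.35) in the Metformin and 0.516 (0.453 to 0.586) in the Wildtype library. ID3 had 64 UMIs in the Metformin cells with acute phase transcripts and 10 in the others (27.3 and 12.8 CPM), a ratio of 2.13 (1.09 to 4.65), and in the Wildtype library the ratio was 0.959 (0.830 to 1.11). The Metformin cell with 9 ID3 UMIs counts in this contrast too, and its part was not tested. At 5 list UMIs the ID3 ratios were 2.04 (1.21 to 3.55) in the Metformin and 0.864 (0.729 to 1.02) in the Wildtype library.

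The feedback inhibitors were not low at 2 mM as ID1 and ID3 were. SMAD6, which blocks BMP type I receptors and SMAD1, had 15 UMIs or 4.60 CPM in the Metformin library, against 14 UMIs or 3.18 CPM in the Wildtype library. SMAD7, which blocks both BMP and TGF-beta receptors, had 20 UMIs or 6.13 CPM in the Metformin library, against 18 UMIs or 4.09 CPM in the Wildtype library. Their ratios of 1.45 (0.650 to 3.23) and 1.499 (0.753 to 3.005) carry intervals that include 1, and no more than 2 UMIs of either gene were found in any cell. BAMBI, a receptor-like membrane protein without a kinase domain, had 107 UMIs or 32.8 CPM (26.9 to 39.6) in the Metformin library, against 111 UMIs or 25.2 CPM (20.7 to 30.4) in the Wildtype library. Its ratio of 1.30 (0.988 to 1.71) lay within 1.5-fold, and its interval included 1. Over the 14 overlapping cell groups the BAMBI ratio ran from 0.549 to 2.51, above 1 in 10 groups and below 1 in 4. Its interval lay above 1 in 7 groups and below 1 in 0. At 1000 UMIs per cell BAMBI was found in 25 Metformin cells (3.12%, 2.03 to 4.58) and in 25 Wildtype cells (2.65%, 1.72 to 3.88). Of these cells, 88.0% (68.8 to 97.5) in the Metformin and 80.0% (59.3 to 93.2) in the Wildtype library were interferon-list cells. Among cells without BAMBI the shares were 34.1% (30.7 to 37.5) in the Metformin and 51.9% (48.6 to 55.2) in the Wildtype library. The interferon list was not alone in this. In the Wildtype library 80.0% (59.3 to 93.2) of cells with BAMBI were acute phase cells, against 43.4% (40.2 to 46.7) of those without. In the Metformin library the acute phase shares were 76.0% and 77.7% of cells with and without BAMBI.

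The promoters of SMAD6 and BAMBI are shown because their windows hold GTCTAGAC or GGCGCC, which those of the ID genes lack, with the same conventions. SMAD6 lies at chr15:66701986-66702235, plus strand, and BAMBI at chr10:28677271-28677520, plus strand.
SMAD6: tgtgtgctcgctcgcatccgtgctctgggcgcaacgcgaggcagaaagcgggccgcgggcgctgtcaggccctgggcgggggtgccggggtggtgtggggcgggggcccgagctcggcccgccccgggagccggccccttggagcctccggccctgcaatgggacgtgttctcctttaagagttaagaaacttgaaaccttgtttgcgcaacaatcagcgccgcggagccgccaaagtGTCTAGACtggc
BAMBI: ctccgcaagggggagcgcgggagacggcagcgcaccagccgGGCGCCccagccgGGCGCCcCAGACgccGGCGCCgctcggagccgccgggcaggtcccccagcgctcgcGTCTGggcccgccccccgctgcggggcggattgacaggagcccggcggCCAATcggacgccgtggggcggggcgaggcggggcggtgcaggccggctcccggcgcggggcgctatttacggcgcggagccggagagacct
SMAD6 held the palindrome GTCTAGAC 12 to 5 bases before its start, a motif found in 64 of 35116 windows. BAMBI held 3 GGCGCC, 2 CAGAC and 1 ATTGG match, in a window of 81.2% GC beside a median of 58% over all windows. The windows of SMAD7 held neither GTCTAGAC nor GGCGCC and are not shown. These are letter matches and say nothing of binding in these cells.

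Of the 7 BMP receptor and co-receptor genes with at least 20 UMIs, 3 were at least 1.5-fold higher at 2 mM and 1 lower. Over all 11770 genes with that many UMIs the shares were 13.1% higher and 7.31% lower. These shares stand beside every list count below, and nothing is read from such small counts. BMPR1B had 0 UMIs in the Metformin and 3 in the Wildtype library. BMP4, the BMP ligand with the highest level, had 259 CPM in the Metformin and 285 CPM in the Wildtype library, a ratio of 0.907 (0.831 to 0.991). The type II receptor gene BMPR2 had 89.5 and 50.2 CPM in the Metformin and the Wildtype library, a ratio of 1.78 (1.49 to 2.13). The type I receptor genes BMPR1A (19.6 and 8.40 CPM, ratio 2.33, 1.53 to 3.598) and ACVR1 (22.1 and 12.0 CPM, ratio 1.83, 1.27 to 2.66) also were higher in the Metformin library, though below the minimum level. Endoglin (ENG), a co-receptor known from endothelium, was lower, with 11 UMIs in the Metformin and 41 in the Wildtype library (ratio 0.362, 0.168 to 0.717).

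Of the 5 SMAD genes with at least 20 UMIs that carry the signal, SMAD4 was at least 1.5-fold higher and 0 lower. SMAD5, a BMP-specific SMAD, had 86.4 and 72.9 CPM in the Metformin and the Wildtype library, a ratio of 1.18 (1.01 to 1.40). SMAD4, the common partner, had 57 and 46 UMIs in the Metformin and the Wildtype library, a ratio of 1.67 (1.11 to 2.52). Of the secreted antagonists, 0 of 6 with at least 20 UMIs passed 1.5-fold, and follistatin (FST) had 91.0 and 64.3 CPM, a ratio of 1.42 (1.20 to 1.67).

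Of 20 intracellular regulators of SMADs, 19 had at least 20 UMIs. Of these, 6 were at least 1.5-fold higher and 0 lower, beside 13.1% and 7.31% of all genes with that many UMIs. PMEPA1, a TGF-beta target that traps receptor SMADs, had 102 and 45.0 CPM in the Metformin and the Wildtype library, a ratio of 2.28 (1.90 to 2.73). The corepressor gene SKI had a ratio of 2.42 (1.57 to 3.80), the SMAD4 deubiquitinase gene USP9X one of 1.78 (1.48 to 2.13), and the phosphatase genes CTDSP1 and CTDSP2 ones of 1.86 (1.41 to 2.48) and 1.58 (1.16 to 2.16). SMURF1, a ubiquitin ligase for SMADs, had 45 and 37 UMIs and a ratio of 1.64 (1.04 to 2.61). YY1, the highest of the list, had 218 and 240 CPM.

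Of 7 other BMP targets with at least 20 UMIs, 1 was at least 1.5-fold lower and 1 higher, beside 7.31% and 13.1% of all genes with that many UMIs, and nothing is read from these small counts. ATOH8 was lower (18 and 44 UMIs in the Metformin and the Wildtype library, ratio 0.552, 0.300 to 0.975) and GATA2 higher (21 and 17 UMIs, ratio 1.67, 0.837 to 3.36, an interval that includes 1). JUNB, the highest of them, had 81.2 and 119 CPM, a ratio of 0.680 (0.584 to 0.789), within 1.5-fold here and past it with TMM factors.

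TGF-beta genes went both ways. Of 12 with at least 20 UMIs, 5 were at least 1.5-fold higher: the receptor gene TGFBR2 (137 and 71.5 CPM, ratio 1.92), TGFB1 (2.11), the latent TGF-beta binding gene LTBP3 (2.06), the activin subunit gene INHBA (34 and 5 UMIs, ratio 9.17, 3.57 to 30.0) and THBS1 (350 and 161 CPM, ratio 2.16). The target CTGF was lower, at 71.7 CPM in the Metformin and 131 CPM in the Wildtype library (ratio 0.546). Of all genes with at least 20 UMIs, 13.1% were at least 1.5-fold higher and 7.31% lower. THBS1, a matrix protein and inhibitor of vessel growth, is also among genes that ID1 is known from mouse cells to repress; another of those, the cell cycle inhibitor gene CDKN1A, had 112 and 123 CPM, a ratio of 0.913 (0.798 to 1.05).

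Among the partners of ID proteins, the E protein gene TCF3 had 35.8 and 22.5 CPM in the Metformin and the Wildtype library, a ratio of 1.59 (1.21 to 2.11), and TCF12 had 49.9 and 46.6 CPM, a ratio of 1.07 (0.868 to 1.32). TCF4 had 7 and 1 UMIs. The helix-loop-helix repressor gene BHLHE41 had a ratio of 1.54 (1.08 to 2.20), and ELK3, the highest of this list at 71.1 and 90.4 CPM, one of 0.786 (0.666 to 0.927). Of the immediate early genes, which serum and stress switch on within minutes as they do ID1, 3 of 13 with at least 20 UMIs were at least 1.5-fold lower: EGR1 (42 and 170 UMIs, ratio 0.333, 0.232 to 0.470), FOS (39.5 and 101 CPM, ratio 0.390, 0.318 to 0.476) and FOSB (16 and 42 UMIs, ratio 0.514, 0.270 to 0.933). IER3, the highest of them, had 396 and 576 CPM, a ratio of 0.687 (0.642 to 0.735), past 1.5-fold with TMM factors. Of all genes with at least 20 UMIs, 7.31% were at least 1.5-fold lower and 13.1% higher.

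Over all lists together, 18 of 82 genes with at least 20 UMIs were at least 1.5-fold higher and 6 lower, against 13.1% and 7.31% of all such genes. The median log2 ratio of the 82 genes was 0.10, beside 0.05 over all 11770 genes. Of the 35 that met the comparison minimum, 5 were higher and 2 lower, with a median of -0.06 beside 0.02 over the 4105 genes.

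**Figure D5:**
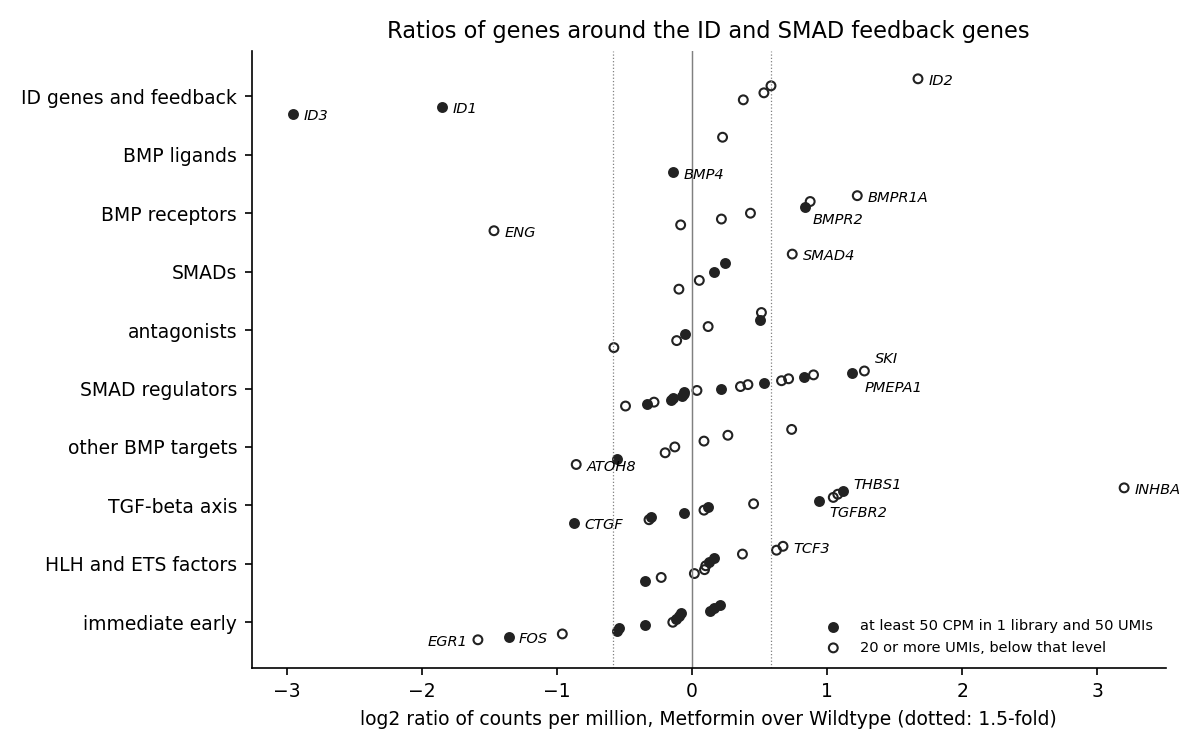
Log2 ratio of CPM, Metformin over Wildtype, of each gene with at least 20 UMIs, by list (a row each, the genes of a row spread vertically in order of ratio); filled points met the comparison minimum and dotted lines mark 1.5-fold. ID3 and ID1 lie furthest to the left, ENG is the one receptor gene past the left line, and no SMAD regulator gene lies past it.

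Profiles were compared over 28 points, the 14 cell groups in each library, which share cells and so are not independent. Among 4006 genes, TCEA3 (Pearson r = 0.97), ESAM (0.97), S100A6 (0.97), LAPTM5 (0.97) and PAPSS1 (0.96) were most like ID1, and ZEB1 (0.97), SMU1 (0.97), NQO1 (0.95), SGCE (0.95) and ESAM (0.95) most like ID3. The r between ID1 and ID3 was 0.95. All of these genes were lower at 2 mM, with ratios of 0.315 for TCEA3, 0.117 for ESAM, 0.238 for LAPTM5, 0.662 for PAPSS1, 0.648 for S100A6, 0.587 for ZEB1, 0.487 for SMU1, 0.465 for NQO1 and 0.723 for SGCE. The difference between libraries takes part in every such r, and no p is given.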

How the data were processed

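Single-cell RNA libraries of MDA-MB-231 mammospheres were analysed, 1 library per metformin dose. The authors deposited whole counts per gene and barcode, taken here as UMIs (tags of single captured transcripts), for 19826 genes in 2000 barcodes. Tools named in the submitters' processing notes are STAR 2.5.0a and bcl2fastq, and the build named is hg19. How barcodes were selected, UMIs collapsed and strands used is not given in the sources used here.

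Every barcode column was mapped to its library by the start of its name. Cells needed 500 UMIs and 300 genes. Summed counts were scaled to CPM. Ratios (2 mM over 0 mM) have exact conditional 95% intervals, sums Poisson ones and shares Clopper-Pearson ones; a difference of shares takes the outer bounds of both. They cover counting error only and are too narrow for differences between cultures. No doublet caller was run. Thinning to 1000 UMIs per cell left out 191 Metformin and 56 Wildtype cells. A gene was called higher or lower from a 1.5-fold ratio. With 1 library per dose there was no test. The interval code was tested on simulated data. Alternatives included TMM factors (edgeR 4.0.16), other depths and merged barcodes 1 base apart. Python 3.11.15 and SciPy 1.17.1 were used.

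The members, lists and named-gene rule were chosen with earlier results of these data known. Named list genes are those past 1.5-fold with at least 20 UMIs (up to 6 a list) and the highest gene of each list, 1 of which is not reported here; TCF12, TCF4, CDKN1A, ID4, BMP2, BMP5, NOG and CHRDL1 were added after their values were seen. Also named are the 5 genes with profiles most like ID1 and ID3. Promoters are RefSeq's on GRCh38.p14, not the build of the counts, and matched all 6 members by symbol.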

Additional observations from a re-analysis of the deposited data

How the results depend on the processing

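With 1 library per dose no replicate could be left out. No paired analysis was possible because each dose has a single library. Under 9 alternatives ID1 had log2 ratios of -2.13 to -1.47, ID3 of -3.25 to -2.79 and ID2 of 1.22 to 3.19, with the same direction and past 1.5-fold in each. BAMBI kept log2 ratios of 0.15 to 0.54. Values outside the counting interval of the reported one were, in cells with few cycle transcripts, -2.13 for ID1 and 2.55 for SMAD6 (0.53 over all cells), and, in cells with few interferon-list transcripts, -1.47 for ID1 and 3.19 for ID2. Shares of cells depended on depth: the ID1 difference was -11.2 points at 500 UMIs, -32.5 points unthinned and -7.31 points for 2 or more UMIs. That of ID3 was -6.99 points at 500, -21.8 points at 2000, -28.3 points unthinned and -2.25 points for 2 or more UMIs, and that of ID2 was 4.44 points at 2000, with an interval above 0, as at 500 UMIs and unthinned. The excess of ID3 in Wildtype cells with ID1 was 5.72 points at 1000 UMIs, with an interval that includes 0, 7.79 and 9.65 points at 500 and 2000 UMIs, with intervals above 0, and 21.8 points unthinned. With list classes at 5 UMIs, log2 ratios were -1.05 for ID1 in acute phase cells, -1.75 for ID1 in HLA class II cells, -4.24 for ID3 in interferon-list cells and -1.40 for ID3 in immediate early cells (-3.83 to 0.42, which includes 0). In hypoxia cells ID3 then had no UMI in the Metformin library, so no value. Without the CPM minimum, 6 list genes were lower and 18 higher, against 2 and 5; with TMM factors 4 were lower. With 5 interferon-list UMIs, an alternative chosen after seeing the data, all 8 contrasts within libraries kept their direction. ID2 and ID3 in the Metformin library then had log2 ratios of -1.95 (-3.20 to -0.91) and -1.65 (-3.02 to -0.53) between interferon-list and other cells, with intervals that no longer include 0. The cause of these shifts was not tested. Depth limits statements on SMAD6, SMAD7 and pairs of rare genes.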

Other observations

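BMP4 was the only listed BMP or GDF ligand gene of the 8 in the table with more than 28 UMIs over both libraries. BMP5 had 13 UMIs in the Metformin and 15 in the Wildtype library, and BMP2 had 1 in the Metformin and 0 in the Wildtype library. Among BMP antagonists, NOG, which encodes noggin, had 66 UMIs in the Metformin and 82 in the Wildtype library. CHRDL1 had 8 UMIs in the Metformin and 0 in the Wildtype library.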
